A study of Homo sapiens with 6 samples.

Results

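In an assay of open chromatin in NCI-H1703 cells, 661 stretches of the genome carried a peak in each of the 3 libraries of cells with silenced DLGAP1-AS2 and in none of the 3 control libraries. They were found by merging the peaks of all 6 libraries on chromosomes 1 to 22 and X wherever peaks shared at least 1 bp, which gave 507086 merged regions, and by keeping those with the required pattern of calls. NCI-H1703, the only line used, is an established line grown from a human squamous carcinoma of the lung. The silenced group is labelled as having the long non-coding RNA DLGAP1-AS2 silenced, and its titles carry the letters ASO. The control group is labelled control and titled NC, and what those cells received is not given in the sources used here. Nothing in the labels says whether the 3 libraries of a group came from separate cultures, so any spread between them may be technical. The regions were chosen by the peak calls themselves. The pattern of calls, and the heights and false discovery rates (FDR) behind it, are therefore given as a description, with no test between the groups.

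ATAC-seq cuts open DNA with a transposase, and stacks of sequenced fragments mark promoters, enhancers and other accessible sites. A peak caller compares the stack at each place with the background expected there, so a call depends on the stack, on the depth of the library and on the background around the site. Enhancers often open and close with the state of a cell and usually lie inside introns or between genes, whereas promoters of widely used genes tend to be open in most cells. YAP, the co-activator named in the title of the series, is known to act largely at enhancers through TEAD factors, often together with AP-1 factors.

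Of the 628 regions on chromosomes other than 8, where the promoter table was used, 7 overlapped a window of the RefSeq table (GRCh38.p14), in which 250 bases precede an annotated start site and 50 follow it. The 250 bases before the start are shown for the 6 such regions whose lowest height was at least 3, because these are the places where a region called only in silenced libraries reached the start of a gene. The last 3 of them tie for the fourth place under the rule for naming. Sequences run 5′ to 3′ on the strand of the gene, and capitals mark the bases that lie inside the merged region.
SFMBT2 (chr10:7408771-7409020, minus strand): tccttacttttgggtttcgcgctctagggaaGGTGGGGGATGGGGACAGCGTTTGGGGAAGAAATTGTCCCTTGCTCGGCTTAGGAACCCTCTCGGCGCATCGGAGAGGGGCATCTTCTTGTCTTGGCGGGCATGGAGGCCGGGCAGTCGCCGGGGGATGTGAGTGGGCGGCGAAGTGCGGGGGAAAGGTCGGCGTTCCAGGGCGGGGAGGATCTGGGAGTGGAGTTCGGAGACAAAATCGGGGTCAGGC
SFTPA2 (chr10:79559872-79560121, minus strand): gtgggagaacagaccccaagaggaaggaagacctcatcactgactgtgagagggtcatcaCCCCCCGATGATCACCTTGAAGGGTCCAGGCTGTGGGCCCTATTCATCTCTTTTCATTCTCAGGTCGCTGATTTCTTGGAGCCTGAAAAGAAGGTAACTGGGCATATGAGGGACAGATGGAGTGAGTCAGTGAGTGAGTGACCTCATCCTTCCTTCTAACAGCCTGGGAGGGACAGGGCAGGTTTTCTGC
LOC105371623 (chr1:175287260-175287509, plus strand): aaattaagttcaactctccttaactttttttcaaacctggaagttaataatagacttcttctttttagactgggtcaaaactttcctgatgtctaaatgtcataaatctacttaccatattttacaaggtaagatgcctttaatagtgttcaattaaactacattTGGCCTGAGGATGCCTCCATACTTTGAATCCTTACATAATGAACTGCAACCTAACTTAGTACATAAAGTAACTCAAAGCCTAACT
PDE1B (chr12:54549351-54549600, plus strand): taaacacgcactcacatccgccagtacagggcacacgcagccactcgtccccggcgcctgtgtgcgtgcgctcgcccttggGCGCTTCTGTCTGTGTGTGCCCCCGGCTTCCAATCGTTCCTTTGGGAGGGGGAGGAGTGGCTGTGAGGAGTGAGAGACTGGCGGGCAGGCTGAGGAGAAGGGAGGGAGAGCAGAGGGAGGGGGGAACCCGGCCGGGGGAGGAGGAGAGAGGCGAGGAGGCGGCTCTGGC
PLIN5 (chr19:4535225-4535474, minus strand): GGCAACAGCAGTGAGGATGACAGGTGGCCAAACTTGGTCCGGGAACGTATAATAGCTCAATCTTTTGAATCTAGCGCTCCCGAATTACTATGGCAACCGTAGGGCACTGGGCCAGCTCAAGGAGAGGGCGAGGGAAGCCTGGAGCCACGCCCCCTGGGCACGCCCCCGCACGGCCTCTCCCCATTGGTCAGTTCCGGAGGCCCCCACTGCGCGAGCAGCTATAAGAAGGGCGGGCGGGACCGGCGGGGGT
SCGN (chr6:25651965-25652214, plus strand): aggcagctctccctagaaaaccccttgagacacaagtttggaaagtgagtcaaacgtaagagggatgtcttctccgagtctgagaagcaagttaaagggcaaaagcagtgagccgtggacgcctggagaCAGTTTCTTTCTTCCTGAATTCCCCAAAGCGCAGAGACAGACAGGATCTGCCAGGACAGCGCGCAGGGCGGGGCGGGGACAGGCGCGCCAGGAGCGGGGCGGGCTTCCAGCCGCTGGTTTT

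SFMBT2 encodes a Polycomb group protein, SFTPA2 encodes a surfactant protein of alveolar type II cells, PDE1B a cyclic nucleotide phosphodiesterase, PLIN5 a coat protein of lipid droplets and SCGN a calcium-binding protein of neuroendocrine cells. The region at SFMBT2 (chr10:7408585-7408989) had heights of 6, 7 and 6 stacked fragments in silenced replicates 1, 2 and 3. That at SFTPA2 (chr10:79559829-79560061) also had heights of 6, 7 and 6. The regions at PDE1B (chr12:54549432-54549835), PLIN5 (chr19:4535149-4535521) and SCGN (chr6:25652094-25652669) had a height of 3 in silenced replicate 3 and of 4 to 6 in the other two silenced libraries. At these 3 genes the FDR in silenced replicate 3 was 0.116, so the call there was weak. The region at LOC105371623 (chr1:175287425-175287660) was also weak, with heights of 4, 3 and 3 and an FDR of 0.112 in silenced replicate 2. At SFTPA2 the FDR in silenced replicate 1 was 0.0529. The FDR at SFMBT2 was 0.0119, 0.0144 and 0.00707, the lowest worst case of the 6. Peaks of control replicates 1, 2 and 3 lay 1480, 237 and 307 bp from the SFMBT2 region. These gaps were 2100, 1924 and 2083 bp at SFTPA2 and 2365, 26698 and 18318 bp at LOC105371623. At PDE1B they were 9435, 17167 and 329 bp. At PLIN5 they were 3061, 9710 and 1001 bp, and at SCGN 1159, 7953 and 6172 bp.

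The windows differ in base composition. The window of LOC105371623 had 32% G and C and no CG dinucleotide, and the window of SFTPA2 had 52.8% with 2 CG. The windows of SFMBT2, PDE1B, PLIN5 and SCGN had 57.6% to 67.6% with 14 to 19 CG, against a median of 58.4% and 11 CG over all 34961 windows of the table on these chromosomes. The letters GGAATG, the core bound by TEAD factors, were searched on both strands and occur in none of the 6 windows shown and in 11.9% of all windows. The region at PDE1B also covers 6 bases of a second window of that gene (chr12:54549830-54550079), which is not shown and which holds these letters outside the region. The letters TGANTCA, bound by AP-1 factors, occur in the windows of SFTPA2 and SCGN and in 6.54% of all windows. In SFTPA2 the match lies inside the called region and in SCGN outside it. A match describes letters and not a bound site.

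The 6 libraries held 91282 to 170747 peaks on these chromosomes. Read depth is not given in the files. A background recovered from the lists as (height + 1) / fold enrichment − 1 has a lowest value in each library that stands in for depth, between 0.237 in silenced replicate 3 and 0.464 in control replicate 2. Both libraries stand apart. In control replicate 2 no peak was lower than 3 and the median height was 8, whereas in the other 5 libraries the lowest height was 2 and the median 3 or 4. Of 10 squamous marker genes, SOX2 and PERP carried a peak no more than 1 kb from either end in all 6 libraries and KRT6A and DSC3 in none, with 2 to 6 of the 10 marked per library. Of 8 lung adenocarcinoma and alveolar markers 5 were marked in all 6 libraries (NKX2-1, NAPSA, SFTPC, SFTPD and LPCAT1), of 7 mesenchymal markers 5, of 6 neuroendocrine markers 3, and of 5 blood markers SPI1 and CD68. Such a peak does not measure expression, and these counts do not separate the cell types.

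The 661 regions are 0.130% of all merged regions and 3.58% of the 18459 regions called in exactly 3 libraries. With 3 of 6 libraries there are 19 other patterns, which held between 415 and 1961 regions, and 15 of the 19 held more than 661. The closest comparison is with the 5 other patterns that also include silenced replicate 3 and also lack control replicate 2, and these held 721 to 871 regions. The pattern in which all 3 control libraries and no silenced library had a peak held 1015 regions. The count depends on single libraries. When control replicate 1, 2 or 3 was left out, 1280, 1013 and 1326 regions met the rule in the remaining 5 libraries. Among the controls, replicate 2 thus changed the count least. When silenced replicate 1, 2 or 3 was left out, 3551, 3385 and 5652 regions did. Without both control replicate 2 and silenced replicate 3, the rule was met by 6767 regions. Leaving out a library also loosens the rule, so these counts are larger in part by construction.

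Most of the regions were low. Over the 661 regions the median height was 3, 4 and 3 in silenced replicates 1, 2 and 3, with quartiles of 3 to 5, 3 to 5 and 3 to 4. The tallest peaks reached 24, 24 and 17. A height of 2 or 3 was the lowest of the 3 libraries in 534 regions (80.8%), a higher share than in any of the 19 other patterns (37.0% to 78.0%). It was 2 in 196 regions, a height below the lowest peak anywhere in control replicate 2. Heights of 8 or more were reached by 48, 44 and 16 of the 661 regions in silenced replicates 1, 2 and 3.

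**Figure D1:**
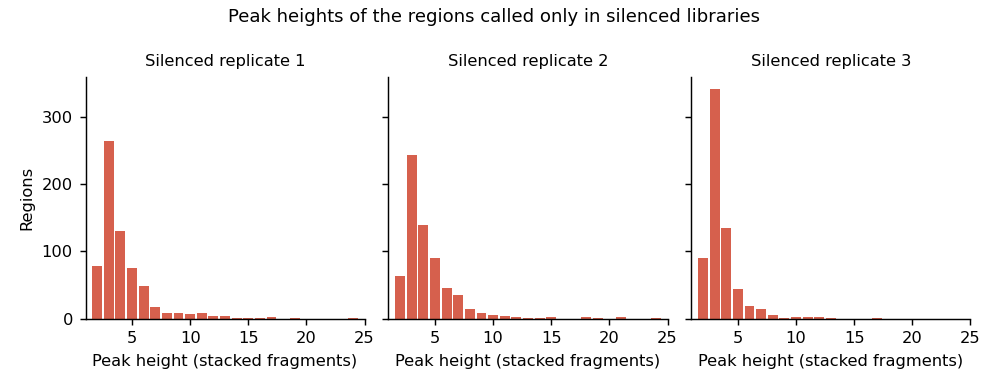
Regions with calls in silenced libraries alone, counted (vertical axis) by peak height in stacked fragments (horizontal axis), 1 panel per silenced library. In each panel the highest bar is at a height of 3, with 264, 243 and 342 of the 661 regions in replicates 1, 2 and 3.

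The FDR and fold enrichment are the authors' own values for each peak. The median FDR over the regions was 0.0925, 0.0995 and 0.0307 in silenced replicates 1, 2 and 3, and the median fold enrichment over background was 2.92, 2.96 and 3.23. In each silenced list these peaks sat near the middle, with 48.1%, 49.6% and 55.6% of the list at a lower p-value than the median region. An FDR under 0.05 in all 3 silenced libraries was reached by 116 regions (17.5%), against 17.3% to 43.8% in the other patterns. An FDR of at most 1e-05 was reached in at least 1 silenced library by 35 regions and in all 3 by 0. When weaker peaks were removed from all 6 lists first, 50 regions met the rule at an FDR of at most 1e-05. That 0 of those 50 shared a base with any of the 661 follows by construction, since 0 of the 661 reached this limit in all 3 silenced libraries. The 50 lay in merged regions that also held a control peak before the weaker peaks were removed.

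Regions just outside the rule are given here for their values only. The 661 regions had a median silenced height of 3 and a median length of 385 bp. Those with a peak in all 3 silenced libraries and in exactly 1 control library numbered 1664, with a median silenced height of 4, a median control height of 5 and a median length of 404 bp. Those with a peak in 2 silenced and no control libraries numbered 10655, with a median height of 3 and a median length of 315 bp.

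The merged regions were 205 to 868 bp long, with a median of 385 bp. The medians of the 19 other patterns ran from 332 to 387 bp, and 2 of them were longer. The peaks inside the regions were shorter than the regions. The median peak length inside the regions was 200, 210 and 200 bp in silenced replicates 1, 2 and 3, and 332, 309 and 371 of the peaks were exactly 200 bp, the shortest interval in the lists. In 115 of the 661 regions no base was shared by all 3 silenced peaks, which were joined only as a chain. The other 546 had a shared part, and over all 661 regions its median was 116 bp.

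Of the 5 longest regions, 3 were chains of this kind. That inside ATAD2B, a gene for a bromodomain protein, measured 868 bp (chr2:23872206-23873073), with heights of 3, 3 and 3 and no shared base. That inside RUBCNL, an autophagy gene, measured 859 bp with heights of 3, 2 and 3, and that inside PRDM6 measured 853 bp with heights of 3, 3 and 3, again with no shared base. The region inside HADHB, a gene of mitochondrial fatty acid oxidation, measured 828 bp with heights of 3, 3 and 2 and a shared part of 138 bp. The fifth, 798 bp long on chromosome 2 and 154667 bp from the nearest gene end, had heights of 3, 2 and 3 and a shared part of 5 bp. The heights of these 5 regions were 2 or 3 throughout.

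Gene context was not part of the rule and is set beside the other patterns. The midpoint of 384 regions (58.1%, 95% Wilson interval 54.3% to 61.8%) lay within the span of a protein-coding or lncRNA gene. This share was 57.6% to 66.1% in the other patterns, and 18 of the 19 were higher. Within 1 kb of either end of such a gene lay 41 regions (6.20%, 95% interval 4.6% to 8.31%), below each of the 19 other patterns (7.03% to 12.6%). Against the 5 closest patterns, at 7.07% to 8.30%, the interval overlaps. Within 1 kb of a start site lay 19 of the 628 regions for which start sites were given (3.03%, 95% interval 1.95% to 4.68%), against 3.50% to 9.60% in the 19 patterns. Neighbouring regions are not independent and these intervals cover counting error only, so the difference in shares was described and not tested.

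**Figure D2:**
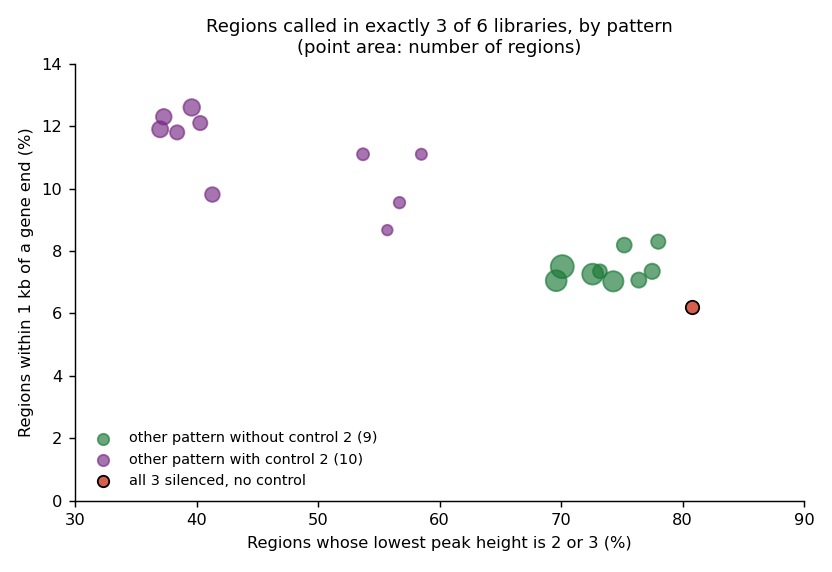
Each point is 1 of the patterns of calls in exactly 3 of 6 libraries, with the share of its regions whose lowest height is 2 or 3 on the horizontal axis and the share within 1 kb of a gene end on the vertical axis (both in percent, point area by number of regions). The regions called only in silenced libraries lie at 80.8% and 6.20%, at the end of a group of 9 patterns that also lack control replicate 2, while the 10 patterns with control replicate 2 lie at lower shares of low heights and at 8.67% to 12.6% near a gene end.

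The patterns fell into 2 ranges by whether control replicate 2 was among the calling libraries. The 9 other patterns without it had 7.03% to 8.30% of their regions near a gene end and 69.6% to 78.0% with a lowest height of 2 or 3. The 10 patterns with it had 8.67% to 12.6% and 37.0% to 58.5%. The regions called only in silenced libraries lie just outside the first range on both measures. The share near a gene end was 8.79% over the 1013 regions that met the rule without control replicate 2. It was 7.08% over the 6767 that met it without both that library and silenced replicate 3. With peaks of a height of at least 4 only it was 9.04% of 188 regions, 127 of which shared a base with the 661. At an FDR of at most 1e-05 it was 14% of 50 regions, 0 of which shared a base with the 661. The part of peak height in this share was not tested. The control-only pattern had 12.6% near a gene end. By comparison, 34.3% of the 37261 regions called in all 6 libraries and 4.69% of the 375808 called in 1 library lay near a gene end. Of the 628 regions with start sites given, 282 lay in a protein-coding gene away from a start, 71 in a lncRNA gene only and 256 between genes, 44 of them over 100 kb from the nearest start.

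Of the 41 regions near a gene end, 31 were near an end of a protein-coding gene, and 18 of the 31 had a lowest height of 2 or 3. Among the 10 tallest by lowest height were those at WDR25, RAD50, P3H3, TAF9 with AK6, SFTPA2, CERK, FKBP8, HELZ and PRPH. Such an end can be either side of a gene. The nearest annotated start site lay 622, 632 and 74 bp from the regions at WDR25, RAD50 and SFTPA2. It lay 11412, 4903, 10414 and 3112 bp from those at P3H3, TAF9 with AK6, FKBP8 and PRPH. For CERK and HELZ it was 2012 and 1596 bp away. RAD50 encodes a subunit of the complex that senses DNA double-strand breaks. Its region (chr5:132557448-132557770, 632 bp from the gene's start) had heights of 13, 18 and 10. Peaks of control replicates 1, 2 and 3 lay only 120, 51 and 162 bp from it. A region called in all 6 libraries lay 51 bp away. Heights of that shared region were 59, 76 and 29 in silenced and 58, 74 and 70 in control libraries. P3H3 encodes a hydroxylase of collagen chains, and its region (chr12:6839729-6840019) had heights of 14, 14 and 8. The region at TAF9, a subunit of the general transcription machinery, and AK6 (chr5:69364478-69364756) had heights of 10, 10 and 6. In these 3 regions silenced replicate 3 had the lowest height. Control peaks lay farther from the other regions of the 3, at 3405, 3501 and 3492 bp for P3H3. For TAF9 with AK6 they lay at 4386, 4179 and 4509 bp.

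CERK encodes ceramide kinase, and its region (chr22:46738235-46738574) had heights of 7, 7 and 6 with a worst FDR of 0.0555. PRPH encodes the neuronal intermediate filament peripherin, and its region (chr12:49298142-49298376) had heights of 13, 13 and 5. FKBP8 (chr19:18532231-18532738) had heights of 9, 9 and 5, and HELZ (chr17:67246549-67247035) of 10, 7 and 5. Peaks of control replicates 1, 2 and 3 lay 27, 110 and 548 bp from the CERK region. At PRPH these gaps were 226, 192 and 269 bp. At FKBP8 they were 466, 9485 and 1614 bp, and at HELZ 282, 975 and 1199 bp. Of the 31 regions at protein-coding gene ends, 8 had an FDR under 0.05 in all 3 silenced libraries. In 19 of the 31 a control library had a separate peak within 1 kb.

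Most of the tallest regions lay near regions called in all 6 libraries. With a limit of 8 chosen after the values were seen, 13 regions had a height of at least 8 in every silenced library, and 12 of the 13 had a region called in all 6 libraries within 5 kb (92.3%, 95% Wilson interval 66.7% to 98.6%). Of the 196 regions whose lowest height was 2, 6 had one (3.06%), and of the 338 at a height of 3, 18 had one (5.33%). The median gap to such a region was 26.6 kb, 27.5 kb, 16.8 kb, 7.22 kb and 2.67 kb at lowest heights of 2, 3, 4, 5 to 7 and 8 or more. In the other patterns together the share with a shared region within 5 kb also rose with height. It was 2.43% of the 3544 regions at a lowest height of 2 and 70.2% of the 1119 at 8 or more.

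**Figure D3:**
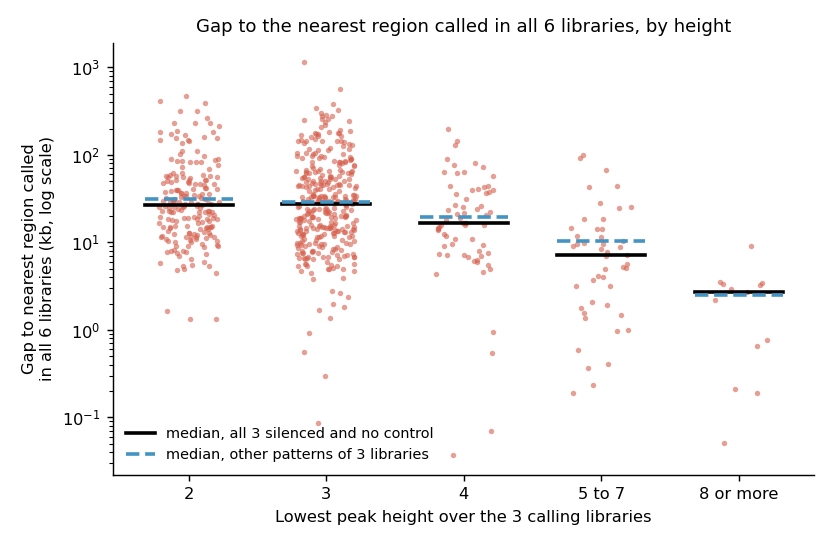
Gap in kb (log scale) from each region called only in silenced libraries to the nearest region called in all 6 libraries, by the lowest peak height of the region over the 3 silenced libraries. Points are regions, solid bars their medians (26.6 kb at a height of 2, 2.67 kb at 8 or more) and dashed bars the medians of the other patterns of 3 libraries (31.0 kb and 2.52 kb).

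The background recovered for these peaks was high in the same places. Both for the regions with a lowest height of 2 and for those of 3, its median was 0.369, 0.402 and 0.28 in silenced replicates 1, 2 and 3. The lowest values of these libraries were 0.369, 0.402 and 0.237, so in silenced replicate 3 the median lay above the lowest value. For the 13 tallest regions the median background was 3.08, 3.76 and 1.70 in silenced replicates 1, 2 and 3, and single values were 2.93 to 17.9 times the lowest value of the library. The lists give no height where no peak was called. How many fragments the control libraries had at these 13 places was therefore not measured, although every control library had a peak within 5 kb of each of them. The part of local background in the calls was not tested.

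The region inside KDM4A, a gene for a histone lysine demethylase, was the tallest (chr1:43653431-43653658), with heights of 24, 24 and 17. Its fold enrichment was 3.29, 3.32 and 3.75 over a recovered background of 6.60, 6.52 and 3.80. A shared region 2674 bp away had heights of 142, 141 and 87 in silenced and 121, 149 and 126 in control replicates 1, 2 and 3, and these groups overlap. At ZFP36L1, which encodes a protein that promotes decay of AU-rich mRNAs, the region (chr14:68788957-68789282) had heights of 19, 21 and 13, with a neighbour 3559 bp away at 27, 36 and 16 in silenced and 33, 30 and 33 in control libraries.

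TRIO, a gene for a guanine nucleotide exchange factor, held a pair of these regions in a span of 367 kb. The first (chr5:14226655-14227217) had heights of 16, 18 and 12 and no base common to the 3 silenced peaks. The second (chr5:14322459-14322793) had heights of 17, 21 and 12 and 253 shared bp, and its FDR was 2.30e-06, 7.07e-07 and 0.00024. Control peaks lay close to both. The nearest was 2004, 306 and 341 bp from the first and 547, 462 and 3292 bp from the second in control replicates 1, 2 and 3.

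The 10 regions with the lowest worst-case FDR lay in MTF2, WDR25, KDM4A, TRIO, RAD50 and CTNND2 or had SPEN-AS1, LOC107984934, LINC01702 and SMKR1 as the gene of the nearest end. MTF2 encodes an accessory protein of the Polycomb repressive complex that methylates histones, and CTNND2 encodes delta-catenin. The region in MTF2 (chr1:93080433-93080748) had heights of 11, 11 and 9, and control peaks lay 445, 374 and 811 bp away. The shared region 763 bp from it had heights of 21, 26 and 17 in silenced and 36, 34 and 36 in control libraries. Every silenced height there lay below every control height. How often this holds over all shared regions was not counted. Heights were not scaled for depth here, and the rank of the shared region near MTF2 differed by −0.23 ± 0.22 (SE) score units (limma, Benjamini-Hochberg adjusted p = 0.964). The region in WDR25 (chr14:100376988-100377227), with heights of 17, 15 and 11, lay 211 bp from a shared region with heights of 44, 55 and 24 in silenced and 51, 61 and 66 in control libraries. The region 728 bp from the end of SPEN-AS1 (chr1:15833360-15833614) had heights of 13, 19 and 11, with control peaks 677, 728 and 710 bp away.

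The other 4 of the 10 had a lowest height of 5 or 6 and differed in how close control peaks lay. On chromosome 1 a region 159921 bp from the end of LOC107984934 (chr1:29849013-29849423) had heights of 6, 7 and 5. Its recovered background in silenced replicate 1 was the library's lowest value, 0.369. The nearest control peaks were 3059, 43645 and 26290 bp away, and the worst FDR was 0.000371. A region in CTNND2 (chr5:11334422-11334703) had heights of 6, 8 and 7 and lay 66785 bp from the nearest shared region, but control peaks were 1954, 1405 and 1795 bp away. Near SMKR1 (chr7:129530743-129531174) the heights were 6, 8 and 8, and control peaks were 825, 6002 and 56 bp away. The region near LINC01702 (chr1:67489712-67489991) had heights of 6, 6 and 5, with control peaks 1420, 8517 and 10190 bp away.

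Control peaks near the regions were common in general. At least 1 control library had a peak within 1 kb of 204 regions (30.9%), and all 3 did for 27. The share was 25.2% to 39.8% in the other patterns, counted for their own missing libraries. Within 200 bp, at least 1 control library had a peak at 61 regions and all 3 did at 2. At the other end, 41 regions had no control peak within 10 kb. By library, the median gap was 4651, 8966 and 4755 bp in control replicates 1, 2 and 3, and control replicate 2 also had the shortest list.

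The regions called in all 6 libraries that lie near these regions are separate from those the rule chose. They were still picked by nearness to them, and fold enrichment depends on local background, so the measure may not be independent of the rule. The fold enrichment of each was ranked within its library over all 37261 such regions, and the ranks, as normal scores, were compared between groups with limma. Of 185 shared regions within 10 kb, 0 had a different rank at an adjusted p-value under 0.05, as was the case for 0 of all 37261 (limma, smallest Benjamini-Hochberg adjusted p = 0.963). At an unadjusted p under 0.05 there were 11 of 185 (5.95%), against 4.68% of all tested, with 3 ranked higher and 8 lower in silenced cells. The median difference (silenced minus control) was −0.059 score units near these regions and 0.007 over all, and 42.7% and 50.9% of the differences were positive. At 50 kb the median over 1186 shared regions was 0.002. Within 5 kb the median over 62 shared regions was −0.121, with 6 (9.68%) at an unadjusted p under 0.05 and 0 at an adjusted one. The 11 regions within 10 kb became 7 when silenced replicate 1 was left out and 5 when silenced replicate 3 was. Leaving out control replicate 2 gave 7, and leaving out control replicate 3 gave 6.

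The lowest unadjusted p among the 185 belonged to a shared region on chromosome 16 (chr16:87295345-87295761), with heights of 9, 8 and 5 in silenced and 4, 3 and 5 in control replicates 1, 2 and 3. It lay 1631 bp from a region called only in silenced libraries and differed by 1.85 ± 0.50 (SE) score units (limma, Benjamini-Hochberg adjusted p = 0.963). The next (chr12:107671057-107671436) had heights of 5, 5 and 3 against 7, 9 and 12 and ranked lower in silenced cells by a difference of −1.20 ± 0.43 (SE), also with an adjusted p of 0.963.

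The 661 regions lay on all 23 chromosomes considered. The largest numbers were on chromosomes 5 (75 regions, 11.3%), 1 (68 regions, 10.3%) and 2 (66 regions, 9.98%). The share on chromosome 5 was above each of the 19 other patterns (6.89% to 10.9%), as was that on chromosome 18 (25 regions, 3.78%, against 2.19% to 3.53%). The shares on chromosomes 9, 15 and 19 were below them, with 12, 9 and 7 regions. On chromosome 19, the most gene-dense chromosome, this is 1.06% of the regions (95% Wilson interval 0.514% to 2.17%), against 2.03% to 4.12% in the other patterns and 4.78% of the regions called in all 6 libraries. On chromosome 5 the interval is 9.15% to 14%. On each of these 5 chromosomes the 95% interval takes in at least 1 other pattern. The 5 closest patterns had 2.36% to 2.94% on chromosome 19, all above the interval there. On chromosome 5 they had 7.09% to 9.22%, which overlaps the interval. These differences were not tested. The shares on the other 18 chromosomes lay within the range of the other patterns.

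**Figure D4:**
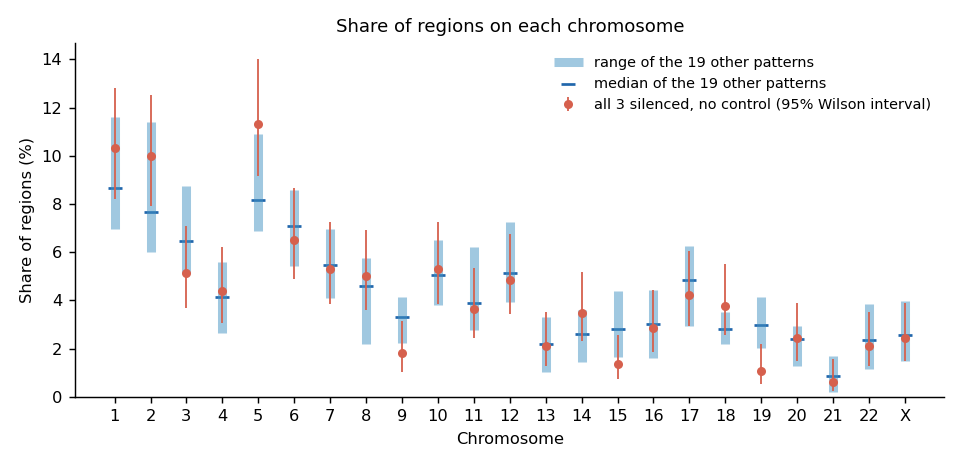
Share of regions on each chromosome in percent, for the regions called only in silenced libraries (points with 95% Wilson intervals) and for the 19 other patterns of calls in 3 libraries (bars from lowest to highest, dash at the median). Chromosomes 5 and 18 lie above the bars at 11.3% and 3.78%, and chromosomes 9, 15 and 19 below them.

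Few of the regions lay close together. The median distance from a region to the nearest other on its chromosome was 1.17 Mb, the closest pair was 6.27 kb apart, and 20 regions had another within 50 kb. On chromosome 5, 26 of the 75 lay in the first 30 Mb (34.7%), against 29.2% of the 1432 chromosome 5 regions of the other patterns. They lay within the spans of 389 genes, of which 373 held 1 region, 16 held 2 and 0 held more. TRIO and CTNND2 were among the 16, both in the first part of chromosome 5, together with MYO1D, an unconventional myosin gene, and IGSF21. The fifth place was shared by GRIK4, which encodes a glutamate receptor subunit, DOCK9, also a gene for a guanine nucleotide exchange factor, and the collagen gene COL23A1. In these last 3 genes the heights were 2 to 6.

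The series title names YAP, phosphatidic acid synthesis and chemoresistance, and 5 gene lists were drawn up on these themes. A region called only in silenced libraries lay within the span, or within 10 kb of it, for 1 of 22 YAP target genes, 1 of 22 genes of phosphatidic acid synthesis, 1 of 19 genes of the Hippo cascade and TEAD factors, 1 of 9 AP-1 genes and 1 of 17 genes of the platinum response. Together this is 5 of 88 different genes (5.68%), against 2.11% of all 19974 protein-coding genes. Gene spans were not matched in length, longer genes have more room for a region, and no test was made over these lists.

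The YAP target was PTPN14, a phosphatase that binds YAP and restrains it, and its region (chr1:214440730-214441083) had heights of 7, 6 and 5 with a worst FDR of 0.0443. All 3 control libraries had a peak nearby, 1029, 618 and 799 bp away. In BATF3, an AP-1 family gene, the region (chr1:212693102-212693579) had heights of 5, 5 and 8 with a worst FDR of 0.0233, and the nearest control peaks were 5364, 5427 and 3208 bp away. The other 3 were weaker. DGKB, a diacylglycerol kinase that makes phosphatidic acid, had heights of 3, 3 and 3 in its region (chr7:14717797-14718070) with a worst FDR of 0.112. MOB1B, a co-activator of the LATS kinases that inhibit YAP, also had heights of 3, 3 and 3 (chr4:70948933-70949208). BRCA1, a gene of homologous recombination repair, had heights of 3, 4 and 4 (chr17:43095201-43095624) with a worst FDR of 0.145. None of these 5 regions lay within 1 kb of a gene end.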

How the data were processed

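ATAC-seq peaks of 6 libraries of NCI-H1703 cells (3 silenced, 3 control) were analysed from 1 deposited list each. For every peak the authors gave position, length, a fold enrichment (a ratio), a p-value, an FDR and the pileup signal (the height), per the file headers. Per the submitters' processing notes, the build was GRCh38 and the tools named were Trimmomatic 0.36, Bowtie2 2.2.6, Picard 2.8.2, MACS2 2.1.1 and bedtools 2.25.0, with no parameters. Whether ends were shifted for the transposase is not given in the sources used here. Whether heights were scaled between libraries is not given in the sources used here.

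The members and gene lists were chosen with earlier results of these data known. Peaks were merged at 1 bp overlap with Python 3.11.15, pandas 2.3.3 and numpy 2.4.6, and each region took its peak of lowest p-value per library. Gene spans came from RefSeq GRCh38.p14 (protein-coding and lncRNA), and start sites from its promoter table, which was not used on chromosome 8. Exons were not analysed here. Wilson intervals (95%) used scipy 1.17.1. The rank fit used limma 3.58.1 in R 4.3.3 (lmFit, eBayes with a trend, Benjamini-Hochberg at 0.05), tested on simulated data. Regions were named by rule: the 10 of lowest worst-case FDR, the 5 of greatest lowest height, the 5 longest, 10 at protein-coding gene ends, any at genes of 5 lists, the 5 genes with most regions, and promoter overlaps. Of the regions at protein-coding gene ends, 1 is not reported here. Same-numbered libraries did not deviate together (correlations −0.002, 0.002 and −0.008 across regions), so the numbers were not taken as pairs.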

Additional observations from a re-analysis of the deposited data

How the results depend on the processing

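The count of 661 regions became 50 at an FDR of at most 1e-05 in every list, 264 at an FDR under 0.05, 188 at a height of at least 4 and 307 with lists of equal length. Leaving out 1 library at a time gave 1013 to 5652, and leaving out both silenced replicate 3 and control replicate 2, chosen after seeing the data, gave 6767. Under the other 5 settings the count was 546 to 845. Limits on FDR, height or list length draw the set anew and do not only thin it. Of the 50, 264, 188 and 307 regions, 0, 116, 127 and 189 shared a base with the 661. Shares and medians given for these settings below therefore describe partly or wholly other regions. The share near a gene end (6.20%) became 14% at an FDR of at most 1e-05, 9.04% at a height of at least 4, 12.4% with 200 bp around peak midpoints, 2.87% with a limit of 500 bp and 20% with one of 5 kb, and ran from 5.61% to 8.79% with 1 library left out. The share inside gene spans (58.1%) became 52.3% at an FDR under 0.05, 50.5% at a height of at least 4 and 46.3% with protein-coding genes only. It was 58.7% to 59.9% with 1 library left out. The median height of 3 rose to 10 under the stricter FDR limit (1e-05), to 5 under the looser one (0.05), to 5 where lower peaks than 4 were dropped, and to 4 with lists of equal length and with midpoints. It was 3 to 4 with 1 library left out. The median length of 385 bp became 358 bp at an FDR under 0.05, 360 bp at a height of at least 4, 351 bp with lists of equal length, 368 bp when merging needed 50 shared bp, 462 bp when peaks up to 200 bp apart were merged and 308 bp with midpoints. It was 318 bp without silenced replicate 3 and control replicate 2, 358 bp where the 3 silenced peaks shared a base (also chosen after seeing the data), and 311 to 376 bp with 1 library left out. The causes were not tested, apart from the fewer peaks or looser rule that some settings bring by construction.

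For the shared regions near these regions, limma called 0 at a Benjamini-Hochberg adjusted p under 0.05 under each alternative run. At an unadjusted p under 0.05 there were 11, against 6 of the 62 within 5 kb, 54 of the 1186 within 50 kb, and 5 to 15 with 1 library left out. The replicate block gave 0 calls at an adjusted p under 0.05, as without it, and 10 at an unadjusted one. Depth is known only through the recovered background, and a missing call does not show that a site is closed.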
